A study of Mus musculus with 3 samples.

Results

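The circadian clock genes described here are 10 genes, Clock, Arntl, Npas2, Per1, Per2, Per3, Cry1, Cry2, Dbp and Nr1d1, taken by symbol from a table of 33101 gene names. Each of the 10 symbols had 1 entry in the table, so no entries had to be summed. Messenger RNA with a poly(A) tail was sequenced from dentate gyri that were micro-dissected from both hemispheres of wild-type male mice (strain C57Black6, C57BL/6 background) that were 8 to 10 weeks old. There was 1 group, WT, of 3 libraries described as biological replicates, with no other genotype, treatment or time. The table gave 1 value per gene for the whole group in FPKM, a fragment count scaled by transcript length and by library size. No replicate error, test or counting interval could be attached to any value, and the depth of sequencing was not known. The sources used here do not give the time of day of dissection, so the levels below belong to an unstated phase of the cycle.

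The mammalian clock is a feedback loop of transcription. CLOCK, or its relative NPAS2, pairs with BMAL1, the product of Arntl, and the pair binds E-box letters in DNA to activate the Per and Cry genes, whose proteins return to the nucleus and repress that activity. In a second loop the nuclear receptor REV-ERB alpha, the product of Nr1d1, represses Arntl, and D-box factors such as DBP carry the rhythm to output genes. The master clock of mammals lies in the suprachiasmatic nucleus, and most other tissues, the hippocampus included, have clocks of their own.

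All 10 clock genes were present at 1 FPKM or more, a level that 39.6% of all names and 56.4% of protein-coding names reached. They spanned a 19.8-fold range, between Dbp at 55.7 FPKM and Npas2 at 2.81 FPKM, with a median of 11.1 FPKM. The median of the 11356 protein-coding names at 1 FPKM or more was 11.5 FPKM, and 5 clock genes lay above it and 5 below. The 10 FPKM mark was reached by 5 clock genes, and by 21.1% of all names and 30.8% of protein-coding names. The count at 100 FPKM or more was 0 of 10 clock genes, beside 2.08% of all names and 2.63% of protein-coding names. By role, the output and loop genes Dbp and Nr1d1 were at 55.7 and 26.5 FPKM, the repressors lay between 39.0 and 7.34 FPKM, and the activators between 8.50 and 2.81 FPKM.

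**Figure D1:**
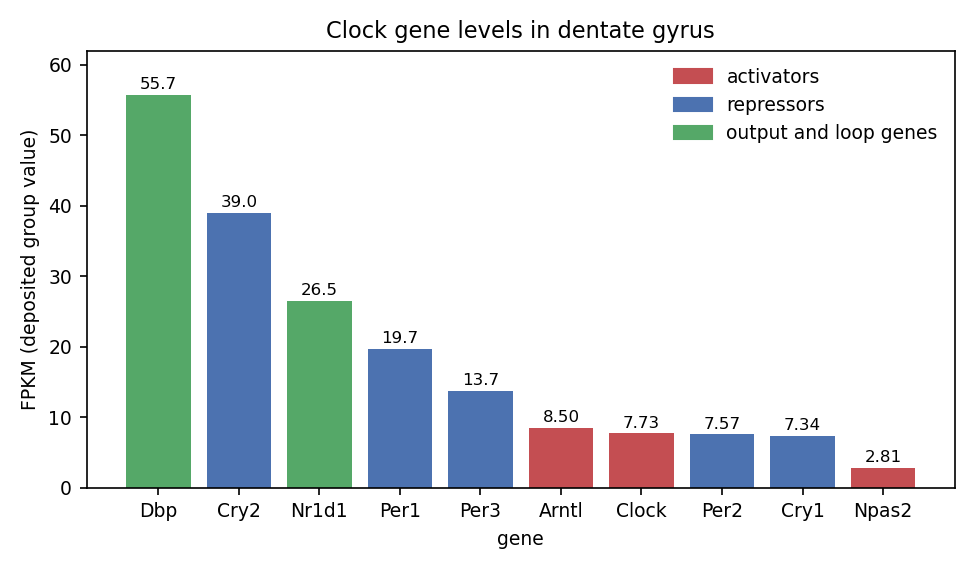
Level of each clock gene in FPKM (vertical axis, from 0), ordered by level and coloured by role, with the value above each bar. Each bar is the authors' single value for the group of 3 libraries and has no error bar. Dbp stands highest at 55.7 FPKM, Arntl, Clock, Per2 and Cry1 form a run between 8.50 and 7.34 FPKM, and Npas2 is lowest at 2.81 FPKM.

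The dissection carried the markers of its label. All 10 dentate granule cell markers reached 10 FPKM, among them the granule cell fate gene Prox1 at 44.8 FPKM and the synaptic organiser gene C1ql2 at 111 FPKM, and their median was 44.1 FPKM. The 10 FPKM mark was reached by 21.1% of all names and 30.8% of protein-coding names. It was also reached by 7 of 8 astrocyte and 7 of 8 microglial markers. Of 10 marker genes of the suprachiasmatic nucleus, 4 were listed at 0 and 6 were under 1 FPKM. Of all 33101 names, 13381 were listed at 0 and 39.6% reached 1 FPKM, so these counts were close to the share over all names. Among protein-coding names, 15273 of 20135 were above 0 and 56.4% reached 1 FPKM. The vasopressin gene Avp was at 1.32 FPKM and Vip, which encodes vasoactive intestinal peptide, at 2.41 FPKM, while the neuropeptide genes Nms and Prok2, the homeobox gene Six6 and the calcitonin receptor gene Calcr were listed at 0. Grp, the gene of gastrin-releasing peptide, was the highest of that list at 19.1 FPKM. Astrocyte, oligodendrocyte and microglial markers were present too, with medians of 140, 30.8 and 15.1 FPKM. Markers of CA pyramidal cells, endothelium and choroid plexus had medians of 5.06, 1.78 and 0.0372 FPKM. The CA markers spread widely, with Cpne4 highest at 39.5 FPKM, near Prox1, and Pou3f1 listed at 0. The tissue was therefore a mixture, and in it fewer cells of a type and less RNA per cell cannot be told apart. How the clock transcripts divided among these cells was not tested.

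The clock loop is known to run through E-box, E'-box and D-box letters. Promoters of 4 of the members that hold such letters are given here with the letters in capitals. Whether these matches are used was not tested. RefSeq sequences of the build GRCm38.p6 covered 9 of the 10 genes in 13 windows that run from 250 bases before to 50 after an annotated start. Each line gives the 250 bases before the start, 5' to 3' on the gene's strand. Per1 lies on the plus strand at chr11:69098699-69098948, Cry1 on the minus strand at chr10:85185055-85185304, Nr1d1 on the minus strand at chr11:98775378-98775627 and Per3 on the minus strand at chr4:151044666-151044915.
Per1: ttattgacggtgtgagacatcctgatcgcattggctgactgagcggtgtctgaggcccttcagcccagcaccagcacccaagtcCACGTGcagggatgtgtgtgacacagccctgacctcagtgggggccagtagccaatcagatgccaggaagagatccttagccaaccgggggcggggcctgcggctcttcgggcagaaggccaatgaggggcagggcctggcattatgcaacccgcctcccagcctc
Cry1: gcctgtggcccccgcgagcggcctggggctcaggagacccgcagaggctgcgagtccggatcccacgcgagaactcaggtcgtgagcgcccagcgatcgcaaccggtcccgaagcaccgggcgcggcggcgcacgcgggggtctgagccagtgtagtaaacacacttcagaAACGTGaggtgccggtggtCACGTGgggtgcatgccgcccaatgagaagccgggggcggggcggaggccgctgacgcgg
Nr1d1: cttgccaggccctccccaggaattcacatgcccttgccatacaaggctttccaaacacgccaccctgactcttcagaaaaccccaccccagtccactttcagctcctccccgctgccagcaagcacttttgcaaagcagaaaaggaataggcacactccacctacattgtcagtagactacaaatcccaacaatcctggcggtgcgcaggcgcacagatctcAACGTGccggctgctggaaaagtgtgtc
Per3: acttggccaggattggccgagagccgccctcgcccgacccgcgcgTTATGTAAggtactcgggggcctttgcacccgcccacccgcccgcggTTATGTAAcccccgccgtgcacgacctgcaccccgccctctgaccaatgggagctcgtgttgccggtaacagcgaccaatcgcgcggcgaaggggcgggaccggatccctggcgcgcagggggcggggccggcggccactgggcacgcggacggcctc
The capitals in Per1 are an E-box. In Cry1 they are an E'-box followed by an E-box, in Nr1d1 an E'-box, and in Per3 a D-box that occurs in 2 copies.

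The E-box CACGTG was found in 2 of 9 genes, beginning 166 bases before the start in Per1 and 60 bases before it in Cry1. Of all 27025 genes with windows of the same length, 8.09% held it in at least 1 window. The variant CACGTT, an E'-box, was added to the search after the sequences had been seen. It lay on the opposite strand, read as AACGTG, in Cry1, Cry2 and Nr1d1, beginning 79, 166 and 28 bases before the start, and 5.44% of all genes held it. The D-box, searched as TTATGTAA and TTACGTAA, was found only in Per3 among the 9 genes, beginning 205 and 158 bases before the start, and 1.23% of all genes held it. A ROR element, searched as NTAGGTCA and NTGGGTCA, was found in Arntl, where it began at base 30 after the start in 1 of its 2 windows, and in 7.33% of all genes. The cAMP response element TGACGTCA was in 0 of 9 genes and in 2.03% of all genes. Both strands were searched for each motif, and no motif overlapped another in the members' windows. The Dbp, Clock and Npas2 windows held none of these letters, and Per2 had no window in the table. The members' windows had a median GC content of 64.7%, against 52.7% over all windows, and GC content was not matched in these shares.

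**Figure D2:**
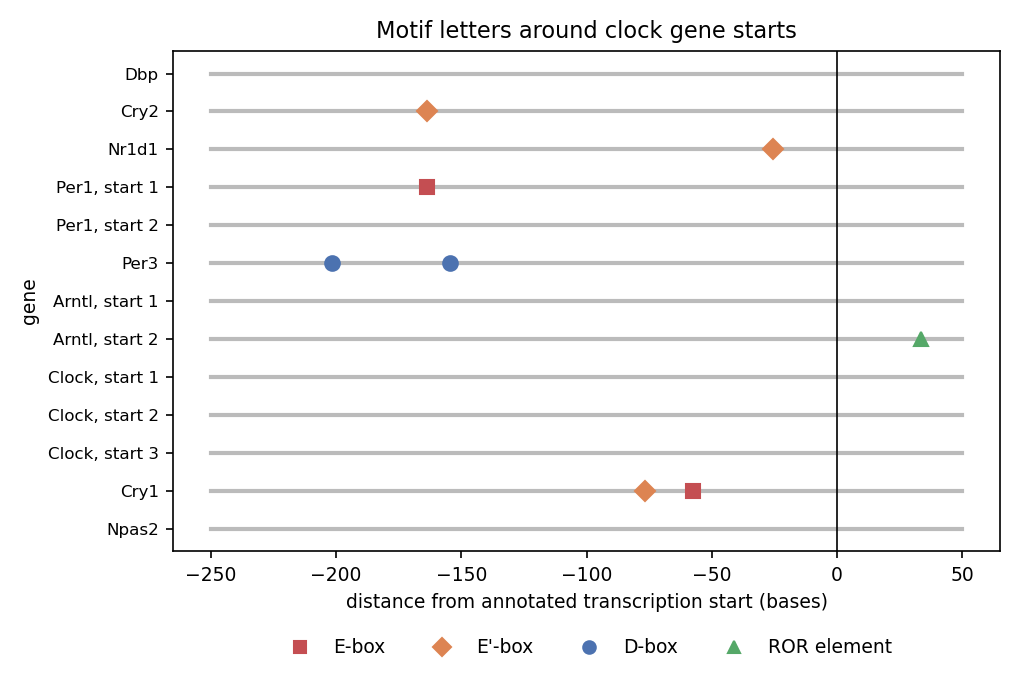
Positions of motif letters (symbols) within the 13 promoter windows of 9 clock genes (grey lines), with the distance from the annotated transcription start in bases on the horizontal axis and genes in order of their level. The E-box of Per1 and the E'-box of Cry2 both begin 166 bases before the start, Per3 holds 2 D-boxes, and 7 windows hold no letters searched.

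All 3 activators lay below the median of the 10 genes. Arntl, whose product BMAL1 is the obligate partner in the activating pair, was at 8.50 FPKM, in an entry that spans 120350979 to 120457636 on chromosome 7 (mm9). Clock, whose product is the usual partner of BMAL1, was at 7.73 FPKM, between 76639992 and 76733817 on chromosome 5. The ratio of Arntl to Clock was 1.10. Npas2, which can stand in for CLOCK and is best known from forebrain, was at 2.81 FPKM, between 39250576 and 39344460 on chromosome 1. Clock exceeded Npas2 by 2.75-fold and Arntl exceeded it by 3.03-fold. Summed, the alternative partners Clock and Npas2 reached 10.5 FPKM, which was 1.24 times the level of Arntl. Arntl2, the gene of the second BMAL protein, was at 0.484 FPKM, and Arntl exceeded it by 17.5-fold, or by 6.40-fold with 1 FPKM added to both.

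The Npas2 and Arntl2 values carry a limit of annotation. The transcript listed for Npas2 is a coding form of 484 nt in GENCODE M21, against 4236 nt for its longest coding form, and that of Arntl2 is a noncoding form of 238 nt. The listed transcripts of Arntl and Clock were not among the M21 transcripts. For the other 7 members the listed transcript was a coding form, of full length in all but Per1, where it had 3507 of 4671 nt. The sources used here do not say whether a value is that of the whole gene or of the transcript listed.

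Among the period genes, which encode the PAS-domain repressors that set the pace of the clock, Per1 was highest at 19.7 FPKM, Per3 stood at 13.7 FPKM and Per2 was lowest at 7.57 FPKM. Per1 exceeded Per2 by 2.61-fold and Per3 by 1.44-fold, and the ratio of Per2 to Per3 was 0.551. Per1 thus held 48.1% of the summed period level of 41.0 FPKM, Per3 33.5% and Per2 18.4%. Per1 is also known as an immediate early gene that answers to cAMP and to glucocorticoids, and Per3 is the period gene least needed for rhythms in mouse. The entry of Per1 spans 68908719 to 68919960 on chromosome 11, that of Per2 93312561 to 93355905 on chromosome 1, and that of Per3 150377761 to 150418774 on chromosome 4 (mm9).

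The cryptochrome genes encode the flavoprotein relatives of photolyase that directly block CLOCK and BMAL1. Cry2 was at 39.0 FPKM and Cry1 at 7.34 FPKM, a ratio of Cry2 to Cry1 of 5.32, the widest gap within a repressor family here. Cry2 made up 84.2% of the summed cryptochrome level of 46.3 FPKM. In mouse, loss of Cry1 shortens and loss of Cry2 lengthens the behavioural period. The summed cryptochrome level was 1.13 times the summed period level. Together the 5 repressor genes summed to 87.4 FPKM, against 19.0 FPKM for the 3 activators, a ratio of 4.59. On the log2(FPKM + 0.1) scale the activator median minus the repressor median was -0.82. Cry1 and Per2 are the exceptions to this order, since both lay below Clock and Arntl. Cry2 spans 92243803 to 92274200 on chromosome 2 and Cry1 84594447 to 84647799 on chromosome 10 (mm9).

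**Figure D3:**
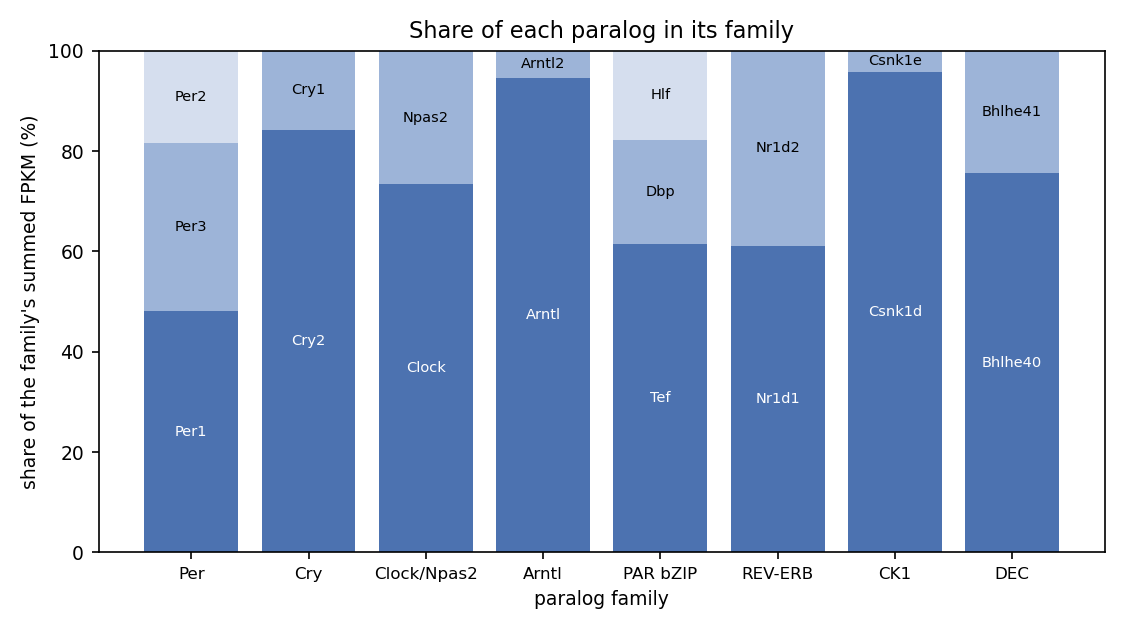
Share of each paralog in the summed FPKM of its family (vertical axis, percent), for the families that hold clock genes and for casein kinase 1 (CK1) and the DEC repressors. Cry2 holds 84.2% of the cryptochrome level and Per1 48.1% of the period level, while Dbp holds 20.7% of the PAR bZIP level.

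Dbp, a D-box binding activator of the PAR bZIP family and a direct target of CLOCK and BMAL1, was the highest of the 10 genes at 55.7 FPKM, above 94.2% of protein-coding names. Nr1d1 followed Cry2 at 26.5 FPKM, above 85.8% of them, and Dbp exceeded it by 2.10-fold. Dbp spans 52960458 to 52965525 on chromosome 7 and Nr1d1 98629246 to 98636647 on chromosome 11 (mm9). The median of these output and loop genes was 41.1 FPKM. With medians taken over log2(FPKM + 0.1) values instead, they exceeded the activators by 2.30 and the repressors by 1.48. Dbp was not the highest of its own family at the unstated phase sampled: it was at 55.7 FPKM, against 165 FPKM for Tef, a ratio of 0.337. Dbp exceeded Hlf at 47.7 FPKM by 1.17-fold. The transcript listed for Hlf was not among the M21 transcripts. Nr1d1 exceeded its paralog Nr1d2, the gene of REV-ERB beta, by 1.57-fold, with Nr1d2 at 16.9 FPKM.

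Nr1d1 and Dbp share exon sequence with genes on the opposite strand. In GENCODE M21 the 3' end of Nr1d1 overlaps Thra, the thyroid hormone receptor alpha gene, over 1075 bases, with 263 exonic bases in common of 3077 in Nr1d1. The ratio of Nr1d1 to Thra was 0.0588, with Thra at 451 FPKM, in an entry whose listed transcript is a noncoding form of 378 nt that ends 14552 bases short of the Nr1d1 entry. Dbp overlaps the sphingosine kinase gene Sphk2, which was at 9.82 FPKM, with 539 exonic bases in common of 2993 in Dbp. Cry2 contains D930015M05Rik on the other strand, listed at 0.686 FPKM, with 295 exonic bases in common of 6320 in Cry2. Strand was not marked in any step of the library protocol, so reads from these shared bases cannot be assigned, and their part in the Nr1d1, Dbp and Cry2 values was not tested. Arntl shared 33 exonic bases with the predicted gene Gm45355, and Clock, Npas2, Per1, Per2, Per3 and Cry1 shared no exonic base with another M21 gene, although Per3 lies within the span of Camta1. The entry RP24-180L10.1, which lies within Npas2 on the other strand, held no value.

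Set in order, the levels fell into steps of unequal size. Dbp exceeded Cry2 by 1.43-fold, Cry2 exceeded Nr1d1 by 1.47-fold, Nr1d1 exceeded Per1 by 1.34-fold, Per1 exceeded Per3 by 1.44-fold and Per3 exceeded Arntl by 1.62-fold. Arntl, Clock, Per2 and Cry1 then lay within 1.16-fold of each other, and Cry1 exceeded Npas2 by 2.61-fold. This run mixes both activators of the canonical pair with 1 period and 1 cryptochrome gene. With no spread over libraries, which neighbours in this order differ could not be tested. Among all protein-coding names the run stood between the percentiles 63.8 and 66.4, and Npas2 at 51.3. Among protein-coding names at 1 FPKM or more, the run stood lower, between the percentiles 35.8 and 40.5, and Npas2 at 13.6.

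**Figure D4:**
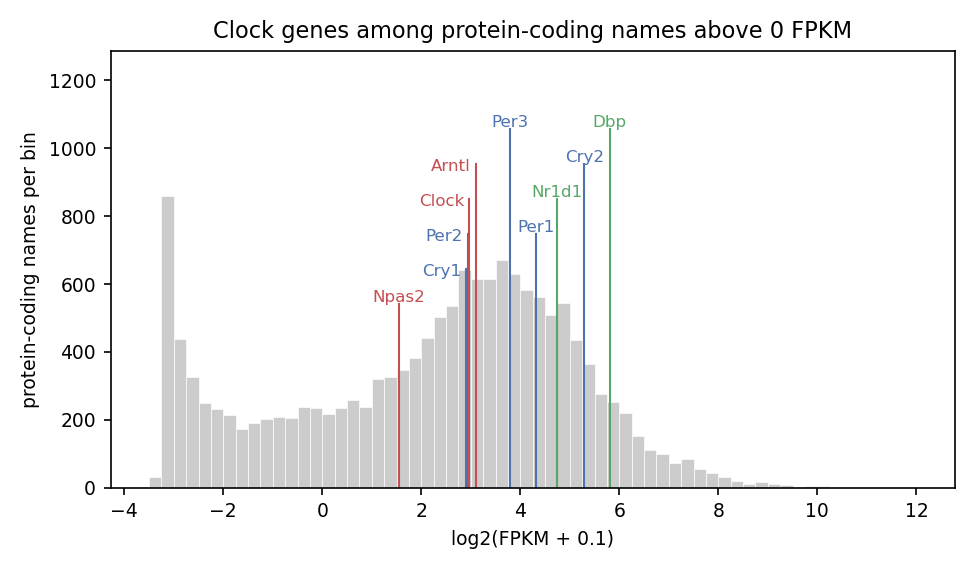
Distribution of log2(FPKM + 0.1) over the 15273 protein-coding names above 0 FPKM (grey bars, number of names per bin of 0.25, with 5 names above the last bin not drawn), with a coloured line at each clock gene (red activators, blue repressors, green output and loop genes; line height has no meaning). The clock genes lie between 1.54 for Npas2, on the lower slope of the main peak, and 5.80 for Dbp, on its upper slope.

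The other genes of the clock pathway spread more widely than the 10 members. As background for the counts in this and the following lists, 56.4% of protein-coding names reached 1 FPKM and 30.8% reached 10 FPKM. Of 7 further genes of the stabilising loop, all reached 1 FPKM and 3 reached 10 FPKM, and their median was 5.10 FPKM. The median log2(FPKM + 0.1) of the clock genes lay 1.07 above that of these genes. Tef was highest at 165 FPKM and Hlf next, both D-box activators like Dbp. Receptor genes whose products oppose REV-ERB on ROR elements were low, with Rora at 2.35 FPKM and Rorb at 1.84 FPKM, and Nr1d1 exceeded Rora by 11.3-fold. Rora exceeded Rorb by 1.27-fold. Nfil3, the D-box repressor, was at 5.10 FPKM.

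Of 10 further transcriptional modulators, 8 reached 1 FPKM and 6 reached 10 FPKM, and the median was 10.5 FPKM. The median log2 level of the clock genes minus that of the modulators was 0.037. The corepressor gene Ncor1, whose product works with REV-ERB, was highest at 63.0 FPKM, followed by Nono at 52.2 FPKM, whose product binds PER proteins. Bhlhe40, the gene of the E-box repressor DEC1, was at 34.4 FPKM and exceeded Bhlhe41, the gene of DEC2, at 11.1 FPKM by 3.11-fold. Timeless, the mammalian relative of a fly clock gene with a role in DNA replication, was lowest at 0.0302 FPKM. Tipin, whose product partners TIMELESS, was at 10.0 FPKM. The transcript listed for Timeless was not among the M21 transcripts, that of Nono was a coding form of 424 nt, and that of the deacetylase gene Hdac3, at 37.0 FPKM, a retained-intron form.

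The 13 genes of enzymes that modify or degrade clock proteins all reached 1 FPKM, 9 of them reached 10 FPKM, and their median was 19.0 FPKM. Clock genes minus these enzymes gave -0.81 in median log2 level. Fbxw11 and Btrc, which encode the F-box proteins that target PER, were at 65.9 and 16.5 FPKM, and the casein kinase 2 subunit gene Csnk2b was at 59.0 FPKM. Of the casein kinase 1 genes whose products phosphorylate PER, Csnk1d was at 45.0 FPKM, against 1.97 FPKM for Csnk1e, a ratio of 22.8. Neither of their listed transcripts was among the M21 transcripts. Fbxl21, which encodes an F-box protein that acts on CRY, was lowest of the list at 1.24 FPKM. The transcript listed for Fbxl21 is a coding form of 798 nt, against 1965 nt for its longest.

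**Figure D5:**
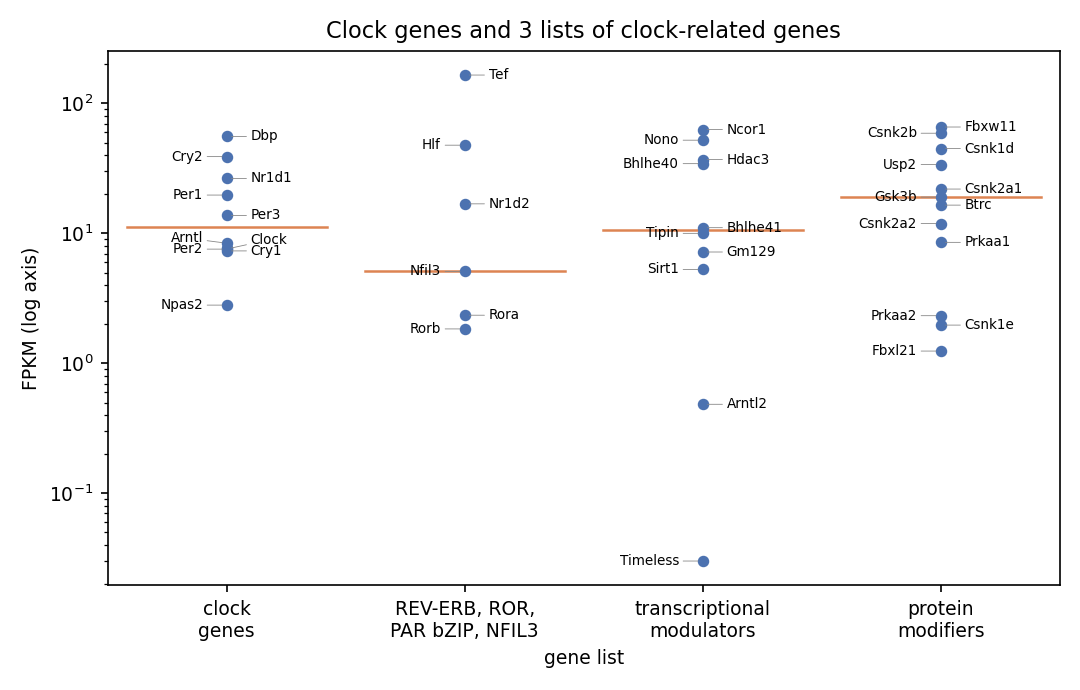
Level of each gene in FPKM (vertical axis, logarithmic) in the 10 clock genes and 3 lists of other clock-related genes, with 1 point per gene and an orange line at the median of the whole list (1 further loop gene and 1 protein modifier are not drawn). The clock genes lie between 2.81 and 55.7 FPKM, while the other lists reach from 0.0302 FPKM for Timeless to 165 FPKM for Tef.

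A list of 12 genes that are often rhythmic across mouse tissues, Per1 among them, had a median of 8.92 FPKM, with 10 at 1 FPKM or more. Fkbp5, an HSP90 cochaperone gene, and Tsc22d3, which encodes a leucine zipper protein, were highest at 45.8 and 40.0 FPKM, both best known as glucocorticoid targets, and the monooxygenase gene Fmo2 was lowest at 0.228 FPKM. Nothing in a single set of levels shows whether any of these transcripts, or any clock gene, varied over the day in this tissue.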

How the data were processed

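Dentate gyrus poly(A) RNA of 3 wild-type libraries was sequenced on an Illumina HiSeq2000, per the labels' protocols. The values are FPKM as deposited by the authors in 1 table with 1 value column for the whole group. The sources used here do not say whether libraries were pooled or averaged. The submitters' processing notes name TopHat, Cufflinks, mm9 and NCBIM37, without versions. A 0 from Cufflinks can be a failed estimate and is called listed at 0.

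Of 37681 entries, 36469 held a value, and entries that share a symbol were summed. Starts were made 1-based. Gene types, transcript lengths and exon overlaps came from GENCODE M21 (GRCm38) by Ensembl identifier, which matched 86.6% of entries, and no coordinates were converted. A percentile is the share of protein-coding names with a lower value. Lists were compared by medians taken over log2(FPKM + 0.1) values, where differences between low genes are understated. In a list with an even number of genes such a median is not the log2 of the FPKM median. No p-value was computed. Promoters came from RefSeq (GRCm38.p6). The motif search recovered 200 of 200 E-box, D-box and ROR element motifs planted in random sequences. The E'-box and the cAMP response element were not planted.

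The members, 16 lists and 17 gene pairs were chosen with earlier results of these data known. The text names the members, both genes of a pair, the 2 highest and the lowest gene of the clock-related lists, and of the suprachiasmatic list, its genes at 0, and overlapping entries. The rule also covers the other marker lists, of which medians, the highest granule cell gene and the highest and lowest CA genes are given. Prox1, Avp, Btrc, Tipin, Nfil3, Hdac3, Camta1 and Gm45355 were chosen after their values were seen. Some genes that the rule names are counted in the lists but not reported here. Alternatives changed the pseudocount, the handling of shared symbols, the background and the list summary, and, chosen after the data were seen, left out Npas2 and added 1 FPKM to family shares. Python 3.11.15, pandas 2.3.3, numpy 2.4.6 and matplotlib 3.10.9 were used.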

Additional observations from a re-analysis of the deposited data

How the results depend on the processing

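No list difference reversed direction under any alternative tried. No pair ratio reversed either, but the same amount was added to both genes, which cannot change which is higher. Of 143 values recomputed under an alternative, 126 moved by less than 1.5-fold (10 points for percentiles and shares). Most of the other 17 were percentiles of single clock genes against another background. Keeping the highest entry of a shared symbol changed none of 37 values. No member shares its symbol, and the values that involve other genes did not change either. These 37 are counted among the 126. So are the list differences with genes at 0 left out, which could not change because no compared list held such a gene. The median percentile of the clock genes, 70.8 among protein-coding names, was 48.2 among protein-coding names at 1 FPKM or more. Against that background Nr1d1 moved from 85.8 to 74.7 and Dbp from 94.2 to 89.8. With list means in place of medians, clock genes minus modulators was 0.70 and clock genes minus protein modifiers was -0.069 on the log2 scale. The member differences from these lists thus depend on the list summary. Of 51 recomputed pair ratios, 50 stayed within 1.5-fold; the other was Arntl to Arntl2, at 6.40 with 1 FPKM added. Leaving out a library was not run, since the table holds 1 value for the group. No paired analysis was possible because the series has a single group and the result comes from no test. The depth is unknown, so low values such as those of Timeless and Arntl2 have no stated precision.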
